A study of Homo sapiens with 6 samples.

Results

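The genes of glutathione conjugation followed here number 10, and 9 of them encode glutathione transferases. MGST1, MGST2 and MGST3 encode the microsomal (membrane-bound) enzymes, GSTP1, GSTO1, GSTZ1, GSTA4 and GSTM4 the pi, omega, zeta, alpha and mu enzymes of the cytosol, and GSTK1 the kappa enzyme of mitochondria and peroxisomes. GGT1 encodes gamma-glutamyltransferase, which cleaves glutathione and its conjugates outside the cell. The members were taken by symbol: all transcripts listed under their gene IDs were kept, which gave 48 of 81818 listed transcripts and 10 of 30061 gene IDs. RNA was sequenced from A549/DDP cells and A549 cells, with 3 libraries of each line. A549 is an established human line derived from a lung adenocarcinoma, and A549/DDP (A549/DPP in the labels) is its derivative resistant to cisplatin (DDP). Both lines were used at passages 6 to 8, and the A549/DDP cells were kept in DDP at 1 µg/mL, against 0 µg/mL for the A549 cells. Resistance and an effect of the drug in the medium therefore cannot be told apart. Resistant and parental cells are each represented by 1 line, and no label tells whether the libraries of a line came from separate cultures, so the p values measure only the spread between these libraries.

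Glutathione is a tripeptide whose thiol group binds reactive compounds. Glutathione transferases join it to electrophiles such as drugs and lipid peroxidation products, the conjugates leave the cell through export pumps of the ABCC family, and GGT1 starts their breakdown at the cell surface. Platinum can be bound by glutathione, and pi and microsomal transferases have long been studied in cells that withstand cisplatin. Many genes of this system are known targets of the transcription factor NRF2, which binds antioxidant response elements, and A549 cells carry a defective KEAP1, the protein that restrains NRF2.

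The deposited values are FPKM (a fragment count scaled to transcript length and library size) of single transcripts, and they do not measure the coding mRNAs of these genes. Of the 48 listed transcripts, 21 are annotated as retained introns and 27 as transcripts of a coding gene with no defined coding sequence. None has a span that belongs to a coding transcript alone, and all 48 were named in GENCODE 44 (GRCh38) by gene ID and span. In all, 3 of them (GSTM4-205, GSTM4-208 and GGT1-226) were listed at 0 in all 6 libraries. The median listed transcript of these genes has 52.1% of its bases inside exons of coding transcripts of the same gene, with a range of 0% to 100%, so fragments of coding mRNAs can fall on most of them.

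The transcripts that passed the test differ from the coding mRNAs at their exon junctions, and these are shown because each sets a called transcript apart from the mRNA of its gene. Each line holds the end of the upstream exon in lower case and the start of the downstream exon in capitals, 5′ to 3′ on the plus strand of GRCh38, and none of these junctions is in a coding transcript.
MGST3-206: tcgaaggtgatccagGCTCTTTAATTTCTC
MGST3-208: gctgcctggcctcaaGAGTTCAAGAATAGC
MGST1-202: tagctgggattacagGTCTAGTGGCACTTG
The MGST3-206 junction joins position 165631293 of chromosome 1 to position 165636775, and the MGST3-208 junction joins position 165647895 to position 165648450. The MGST1-202 junction joins position 16383604 of chromosome 12 to position 16437388.

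For the genes as wholes, FPKM were summed over the listed transcripts of each gene ID. The sum of MGST3 was higher in A549/DDP cells and was the only 1 of the 10 called, while the sums of MGST1, MGST2, GSTP1, GSTO1 and GSTK1 had higher values in every A549/DDP library without passing the threshold. Sums were called where limma gave an adjusted p below 0.01 with a log2 fold change beyond 1 in size on the log2(FPKM + 1) scale, with Benjamini-Hochberg adjustment over all 10591 gene sums tested. Of those, 2.35% were called, 1.39% as higher and 0.963% as lower in A549/DDP cells. All 3 A549/DDP libraries lay above all 3 A549 libraries for 6 of the 10 sums, against 21.8% of all gene sums tested. They lay below for 1 sum, GSTZ1, against 10.4% of all, and the libraries overlapped for GSTA4, GSTM4 and GGT1. The median log2 fold change was 0.94 over the 10 sums and 0.17 over all gene sums tested. Scaling the libraries to each other moved that overall median to 0.01 (quantile normalization) or 0.02 (median-ratio scaling), and the 10 genes kept their signs under both. The called gene sums split into 147 higher and 102 lower as deposited, 105 and 123 after quantile normalization, and 94 and 119 after median-ratio scaling. MGST1, MGST3, GSTP1, GSTO1 and GGT1 are among genes the study chose on these samples, so their direction is not independent evidence. In bulk RNA, a change in the number of cells that express a gene and a change in its RNA per cell cannot be told apart.

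**Figure D1:**
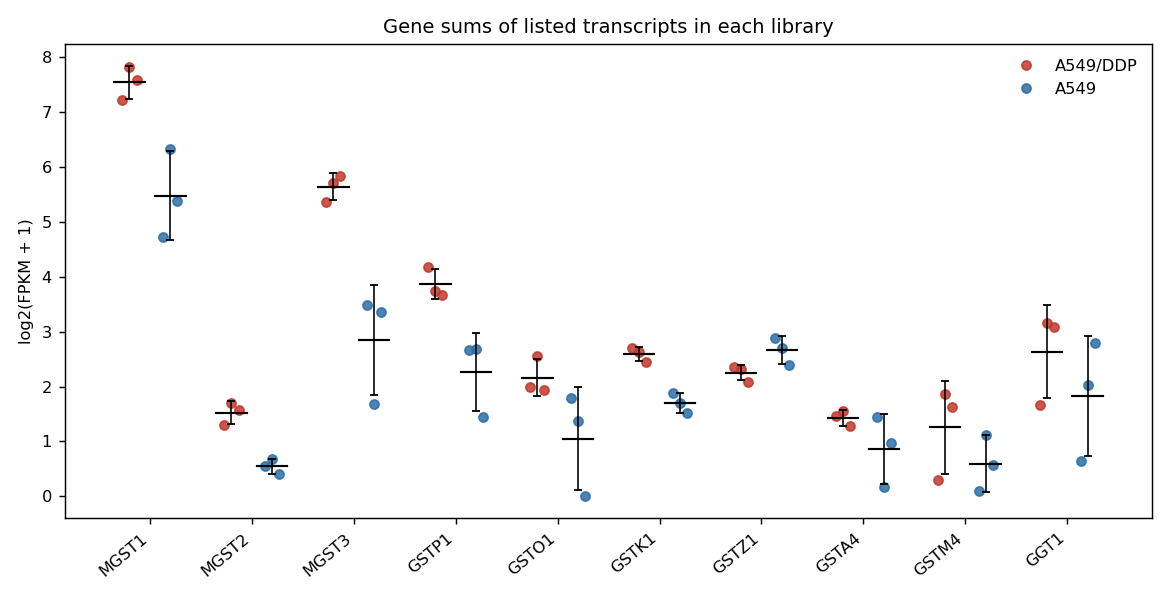
Gene sums of the 10 members in each library, as log2(FPKM + 1). Points are libraries (A549/DDP left, A549 right of each pair), black lines are means and bars are SD, n = 3 each. MGST1 and MGST3 have the highest means in both lines, and the A549/DDP points lie above the A549 points for MGST1, MGST2, MGST3, GSTP1, GSTO1 and GSTK1.

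MGST3 (ENSG00000143198, chromosome 1, 165631213 to 165661796, plus strand) encodes a membrane enzyme with glutathione transferase and glutathione peroxidase activity toward lipid hydroperoxides. Its sum was 40.2, 51.5 and 56.3 FPKM in the A549/DDP libraries, against 10.2, 2.23 and 9.30 FPKM in the A549 libraries. The lowest A549/DDP library was thus far above the highest A549 library, and A549 replicate 2 was the low one among the A549 libraries. The means were 49.4 ± 8.28 FPKM in A549/DDP cells and 7.23 ± 4.35 FPKM in A549 cells (SD, n = 3 each). The log2 fold change of 2.80 (SE 0.46, 95% interval 1.75 to 3.84) had an adjusted p of 0.00993 by limma with Benjamini-Hochberg adjustment. This value sits close to the threshold, and over 15 alternative settings the adjusted p ran between 0.00638 and 0.0511 with the log2 fold change between 2.22 and 3.11, so that the call held in 3 settings and was lost in 12. It was lost without any single library other than A549 replicate 2, with an adjusted p of 0.0511 without A549/DDP replicate 3, 0.0439 without A549/DDP replicate 2, 0.0309 without A549/DDP replicate 1, 0.0251 without A549 replicate 3 and 0.0172 without A549 replicate 1.

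MGST1 (ENSG00000008394, chromosome 12, 16347142 to 16609259, plus strand) encodes the abundant transferase of the endoplasmic reticulum and outer mitochondrial membrane. It had the highest sum of the 10 genes in both lines. The values were 149, 226 and 192 FPKM in A549/DDP libraries, against 25.5, 79.3 and 40.7 FPKM in A549 libraries. The groups did not overlap, but the A549 libraries spread widely, and replicate 2 was the high one among them. The means were 189 ± 38.5 FPKM in A549/DDP cells and 48.5 ± 27.7 FPKM in A549 cells (SD, n = 3 each), with a log2 fold change of 2.07 (SE 0.39, 95% interval 1.18 to 2.96) and an adjusted p of 0.0175 by limma, which is not a call. Without A549 replicate 2 the MGST1 sum was called (log2 fold change 2.49, adjusted p 0.00791 by limma).

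MGST2 (ENSG00000085871, chromosome 4, 139665768 to 139740745, plus strand) encodes an enzyme that can also join glutathione to leukotriene A4. Its listed transcripts were scarce. The sum was 1.45, 2.26 and 1.98 FPKM in A549/DDP libraries, against 0.474, 0.599 and 0.320 FPKM in A549 libraries, with no overlap. The log2 fold change was 0.98 (SE 0.21, 95% interval 0.49 to 1.47) with an adjusted p of 0.0285 by limma. None of its 3 transcripts was high enough to be tested, and different ones held the sum in different libraries. MGST2-205 held 7.8%, 87.9% and 3.5% of it in the A549/DDP libraries, against 99.9%, 0% and 86.7% in the A549 libraries.

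GSTP1 (ENSG00000084207, chromosome 11, 67583742 to 67586656, plus strand) encodes the pi enzyme, the main cytosolic transferase of many tumor cells. Its sum was 17.1, 12.4 and 11.7 FPKM in A549/DDP libraries, against 5.35, 5.44 and 1.74 FPKM in A549 libraries. Every A549/DDP library was above every A549 library. The log2 fold change was 1.59 (SE 0.37, 95% interval 0.76 to 2.43) and the adjusted p 0.0342 by limma, so the sum was not called.

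GSTO1 (ENSG00000148834, chromosome 10, 104235356 to 104267459, plus strand) encodes the omega enzyme, which has thioltransferase and dehydroascorbate reductase activity. Its sum was 3.0, 4.86 and 2.81 FPKM in A549/DDP libraries, against 2.45 and 1.59 FPKM in A549 replicates 1 and 2, and it was listed at 0 in A549 replicate 3. The A549/DDP libraries were all higher, although the gap between the lowest of them and the highest A549 library was small. The log2 fold change was 1.11 (SE 0.45, 95% interval 0.08 to 2.13) and the adjusted p 0.157 by limma.

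GSTK1 (ENSG00000197448, chromosome 7, 143244093 to 143270854, plus strand) encodes an enzyme unrelated in sequence to the cytosolic classes. Of the 10 sums, it had the smallest SD relative to its mean in both lines. Its sum was 5.47, 5.18 and 4.47 FPKM in A549/DDP libraries, against 2.71, 2.24 and 1.85 FPKM in A549 libraries. The means were 5.04 ± 0.512 FPKM in A549/DDP cells and 2.27 ± 0.431 FPKM in A549 cells (SD, n = 3 each), with a log2 fold change of 0.89 (SE 0.23, 95% interval 0.37 to 1.42) and an adjusted p of 0.048 by limma.

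GSTZ1 (ENSG00000100577, chromosome 14, 77320996 to 77331597, plus strand) encodes maleylacetoacetate isomerase, an enzyme of tyrosine breakdown. It was the only gene of the 10 with a negative log2 fold change. Its sum was 4.12, 3.97 and 3.26 FPKM in A549/DDP libraries, against 6.40, 5.54 and 4.25 FPKM in A549 libraries. The groups did not overlap, but the highest A549/DDP value was close to the lowest A549 value. The log2 fold change was -0.41 (SE 0.24, 95% interval -0.96 to 0.14) with an adjusted p of 0.312 by limma.

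GSTA4 (ENSG00000170899, chromosome 6, 52977948 to 52995304, minus strand) encodes the alpha enzyme that acts on 4-hydroxynonenal, a lipid peroxidation product. Its sum was 1.75, 1.95 and 1.42 FPKM in A549/DDP libraries, against 1.72, 0.128 and 0.965 FPKM in A549 libraries. The groups overlapped, and the log2 fold change of 0.57 had a 95% interval of -0.18 to 1.32 (adjusted p 0.302 by limma). GSTM4 (ENSG00000168765, chromosome 1, 109656099 to 109665496, plus strand) encodes a mu enzyme that resembles the other members of its class, so its values are uncertain where reads are shared with them. Its sum was 0.227, 2.63 and 2.09 FPKM in A549/DDP libraries, against 0.0640, 1.18 and 0.483 FPKM in A549 libraries. Again the groups overlapped, and the log2 fold change was 0.67 (95% interval -0.33 to 1.66, adjusted p 0.363 by limma).

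GGT1 (ENSG00000100031, chromosome 22, 24594811 to 24629005, plus strand) has near-identical copies in the genome, so its values are uncertain too. Its sum was 2.18, 7.95 and 7.48 FPKM in A549/DDP libraries, against 0.560, 3.08 and 5.95 FPKM in A549 libraries. Replicate 1 was the low library of each line, and the lines overlapped. The log2 fold change was 0.82 (SE 0.59, 95% interval -0.53 to 2.16) and the adjusted p 0.412 by limma.

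**Figure D2:**
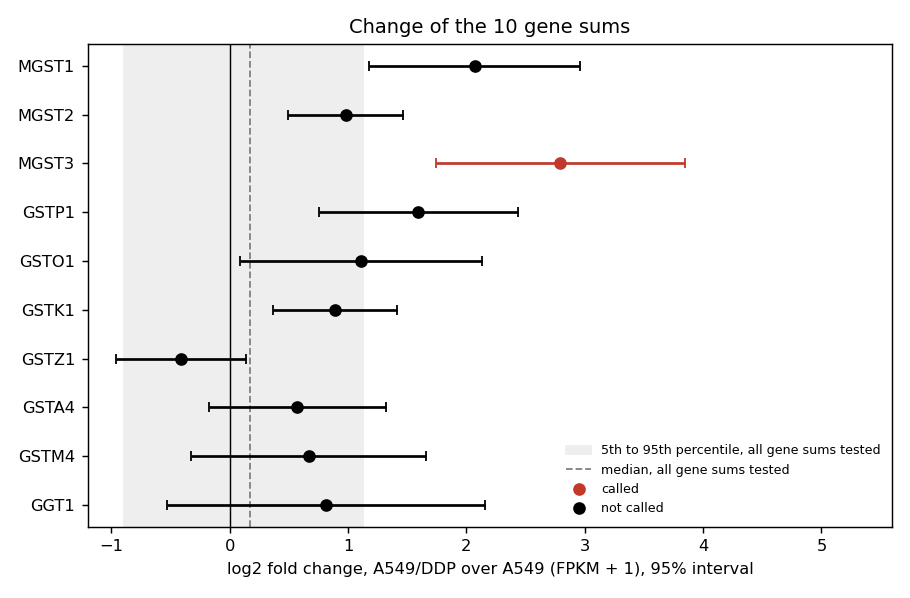
Log2 fold change of each gene sum, A549/DDP over A549 on the log2(FPKM + 1) scale, with its 95% interval from limma. The grey band spans the 5th to 95th percentile of all gene sums tested, -0.89 to 1.13, and the dashed line their median of 0.17. MGST3, at 2.80, is the one called, and the interval of GSTZ1 reaches from -0.96 to 0.14.

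By the sum of listed transcripts, MGST1 and MGST3 led in both lines. The number listed differs (8 each for MGST1, MGST3 and GSTM4, 2 each for GSTO1 and GSTA4), so the order is not one of mRNA levels. Summed over the 10 genes, the listed transcripts reached 225, 319 and 283 FPKM in A549/DDP libraries, against 55.4, 101 and 65.5 FPKM in A549 libraries. MGST1 made up 66.4% to 70.9% of this in A549/DDP libraries and 46.1% to 78.3% in A549 libraries, and MGST3 made up 16.2% to 19.9% in A549/DDP libraries and 2.2% to 18.3% in A549 libraries. In A549/DDP cells the order by mean was MGST1, MGST3, GSTP1, GGT1, GSTK1, GSTZ1, GSTO1, MGST2, GSTA4 and GSTM4. There, GGT1 and GSTK1 overlapped between libraries, as did GSTZ1 and GSTO1, MGST2 and GSTA4, and GSTA4 and GSTM4, and the other neighbours did not. In A549 cells the order was MGST1, MGST3, GSTZ1, GSTP1, GGT1, GSTK1, GSTO1, GSTA4, GSTM4 and MGST2, and only MGST1 and MGST3 did not overlap between libraries. The median log2 fold change was 2.07 over the 3 microsomal genes and 0.78 over the 6 other transferases, a description of genes picked by name.

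At the level of single transcripts, 28 of the 48 passed the filter of 0.5 FPKM in at least 3 of 6 libraries, and the highest value of an untested one was 1.99 FPKM. MGST3-206, MGST3-208 and MGST3-213 reached 0.5 FPKM in no A549 library and so entered the test only through their A549/DDP values. In total, 3 transcripts were called as higher in A549/DDP cells (MGST3-206, MGST3-208 and MGST1-202) and 0 as lower, against 0.353% and 0.198% of the 20663 transcripts tested. Of those 20663, 0.552% were called in either direction. Among all 48 listed, 20 had every A549/DDP library above every A549 library and 0 had every one below, against 8.79% and 4.03% of all 81818 listed transcripts, many of which are at 0 throughout. Among the 28 tested the counts were 19 and 0, against 18.9% and 8.91% of the 20663 transcripts tested. Both the 20 and the 19 include 8 transcripts of MGST1 and 7 of MGST3. Transcripts of the same gene can share fragments, so these are not separate observations. Among the tested, the filter alone fixed the order of MGST3-206, MGST3-208 and MGST3-213.

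The called transcripts of MGST3 lie mostly or wholly in its long first intron. MGST3-206 (chromosome 1, 165631237 to 165637149) has 432 bases, 57 of them in coding exons and 375 in intron 1 of the reference (MANE) transcript MGST3-205. Its level was 4.84, 5.72 and 4.81 FPKM in A549/DDP libraries, against 0.160 and 0.244 FPKM in A549 replicates 1 and 2, and it was listed at 0 in A549 replicate 3. The A549/DDP libraries were alike and the A549 libraries close to 0 (log2 fold change 2.43, SE 0.23, adjusted p 0.00459 by limma). MGST3-208 (165645661 to 165648670) has 2456 bases, all in intron 1, which is 18547 bases long. It stood at 3.0, 2.50 and 3.56 FPKM in A549/DDP libraries, against 0.169, 0.116 and 0.245 FPKM in A549 libraries. MGST3-208 shares no base with coding exons, so fragments from annotated coding exons do not fall on it. The libraries were made from rRNA-depleted RNA, and fragments of unspliced MGST3 RNA may fall on it, which was not tested. Its log2 fold change was 1.77 (SE 0.22, adjusted p 0.00947 by limma). Both calls were lost without any single library, with adjusted p of 0.0154 to 0.0269 for MGST3-206 and 0.0291 to 0.0441 for MGST3-208 by limma.

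MGST3-213 (165648792 to 165651892) is a single block that runs from intron 1 through exon 2, intron 2 and exon 3 into intron 3. The edges of intron 2, which it retains whole (1049 bases), are shown with the first and last 2 intron bases in capitals, as the read-through that this transcript stands for.
MGST3 intron 2, first edge (chr1:165649950-165649979): aagtacaaagtggagGTaagtgggaacaca
MGST3 intron 2, last edge (chr1:165650999-165651028): gctttgttgtgacAGtatcctatcatgtac
Its level was 2.95, 2.74 and 3.30 FPKM in A549/DDP libraries, against 0.0309, 0.175 and 0.484 FPKM in A549 libraries. The A549/DDP libraries agreed closely, and the log2 fold change was 1.71 (SE 0.23, adjusted p 0.0119 by limma). This is just outside the threshold.

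The other MGST3 transcripts were more variable. MGST3-212, whose 6 exons lie 88.1% in coding exons, had 8.68, 21.4 and 25.9 FPKM in A549/DDP libraries, against 7.61, 0.239 and 4.39 FPKM in A549 libraries. It carried the largest part of the sum (36.4% ± 13.0 in A549/DDP cells and 44.3% ± 32.2 in A549 cells, SD, n = 3 each), and with an adjusted p of 0.135 by limma it was the least certain of the 7 tested. MGST3-210, which keeps 507 bases of intron 3, had 6.62, 9.80 and 9.38 FPKM in A549/DDP libraries, against 1.27, 0.345 and 1.93 FPKM in A549 libraries (adjusted p 0.0221 by limma). MGST3-211, with 446 bases of intron 4, had 10.7, 4.58 and 4.46 FPKM in A549/DDP libraries, against 0.584, 0.830 and 0.540 FPKM in A549 libraries (adjusted p 0.0239 by limma). The 7 tested transcripts thus had the A549/DDP libraries on top in each case, with log2 fold changes from 1.71 to 2.43. For MGST3-206, MGST3-208 and MGST3-213, which reached 0.5 FPKM in no A549 library, the filter alone fixed this order. Both ends of that range came from them. The tested transcripts that reached 0.5 FPKM in some A549 library had log2 fold changes from 1.77 (MGST3-209) to 2.22 (MGST3-212). MGST3-209 had 2.52, 4.74 and 4.94 FPKM in A549/DDP libraries, against 0.258 and 1.38 FPKM in A549 replicates 2 and 3, and it was listed at 0 in A549 replicate 1 (adjusted p 0.049 by limma). MGST3-207, at most 0.909 FPKM, overlapped between the lines and was not tested.

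All 8 MGST1 transcripts had higher values in every A549/DDP library. MGST1-202 (chromosome 12, 16382827 to 16438761), the one called, has 2152 bases and starts beyond the end of the reference transcript MGST1-205 at 16364410, with no base in coding exons. Its level was 5.97, 5.47 and 6.36 FPKM in A549/DDP libraries, against 0.567, 1.01 and 0.746 FPKM in A549 libraries. The libraries of each line agreed closely, and the log2 fold change was 1.97 (SE 0.24, adjusted p 0.00911 by limma). The call was lost without any single library (adjusted p 0.0206 to 0.0457 by limma). Its span overlaps another annotated gene on the same strand, ENSG00000286303, so its reads may be shared with that gene.

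Most of the MGST1 sum came from MGST1-208, a retained-intron transcript of 655 bases with 85.6% of them in coding exons and 94 in intron 2. It had 96.8, 177 and 140 FPKM in A549/DDP libraries, against 11.7, 63.5 and 27.4 FPKM in A549 libraries. The libraries of each line varied widely, and the log2 fold change of 2.24 (SE 0.56) had an adjusted p of 0.073 by limma. Its share of the sum was 72.1% ± 6.8 in A549/DDP cells and 64.4% ± 17.3 in A549 cells (SD, n = 3 each), so the 2 lines overlapped in this share. MGST1-214 had 14.2, 10.8 and 13.0 FPKM in A549/DDP libraries, against 5.15, 1.86 and 3.46 FPKM in A549 libraries (adjusted p 0.0434 by limma). MGST1-217 had 5.86, 5.53 and 6.98 FPKM in A549/DDP libraries, against 0.676, 2.39 and 0.964 FPKM in A549 libraries (adjusted p 0.0363 by limma). MGST1-210 had 3.13, 2.83 and 3.96 FPKM in A549/DDP libraries, against 0.00579, 0.940 and 0.506 FPKM in A549 libraries (adjusted p 0.0341 by limma). These 3 share the pattern of even A549/DDP libraries and scattered A549 libraries.

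The remaining MGST1 transcripts were less distinct. MGST1-211 had 15.9, 11.7 and 10.7 FPKM in A549/DDP libraries, against 3.603, 6.03 and 1.60 FPKM in A549 libraries (adjusted p 0.0712 by limma). MGST1-213 had 2.19, 3.51 and 5.08 FPKM in A549/DDP libraries, against 0.447, 1.11 and 1.16 FPKM in A549 libraries (adjusted p 0.076 by limma). Both reach far beyond the coding transcripts and overlap other genes there, LMO3 among them on the opposite strand, which makes their values uncertain. MGST1-206, the smallest difference of the 8, had 5.05, 9.07 and 5.65 FPKM in A549/DDP libraries, against 3.39, 2.48 and 4.85 FPKM in A549 libraries (log2 fold change 0.73, adjusted p 0.253 by limma).

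**Figure D3:**
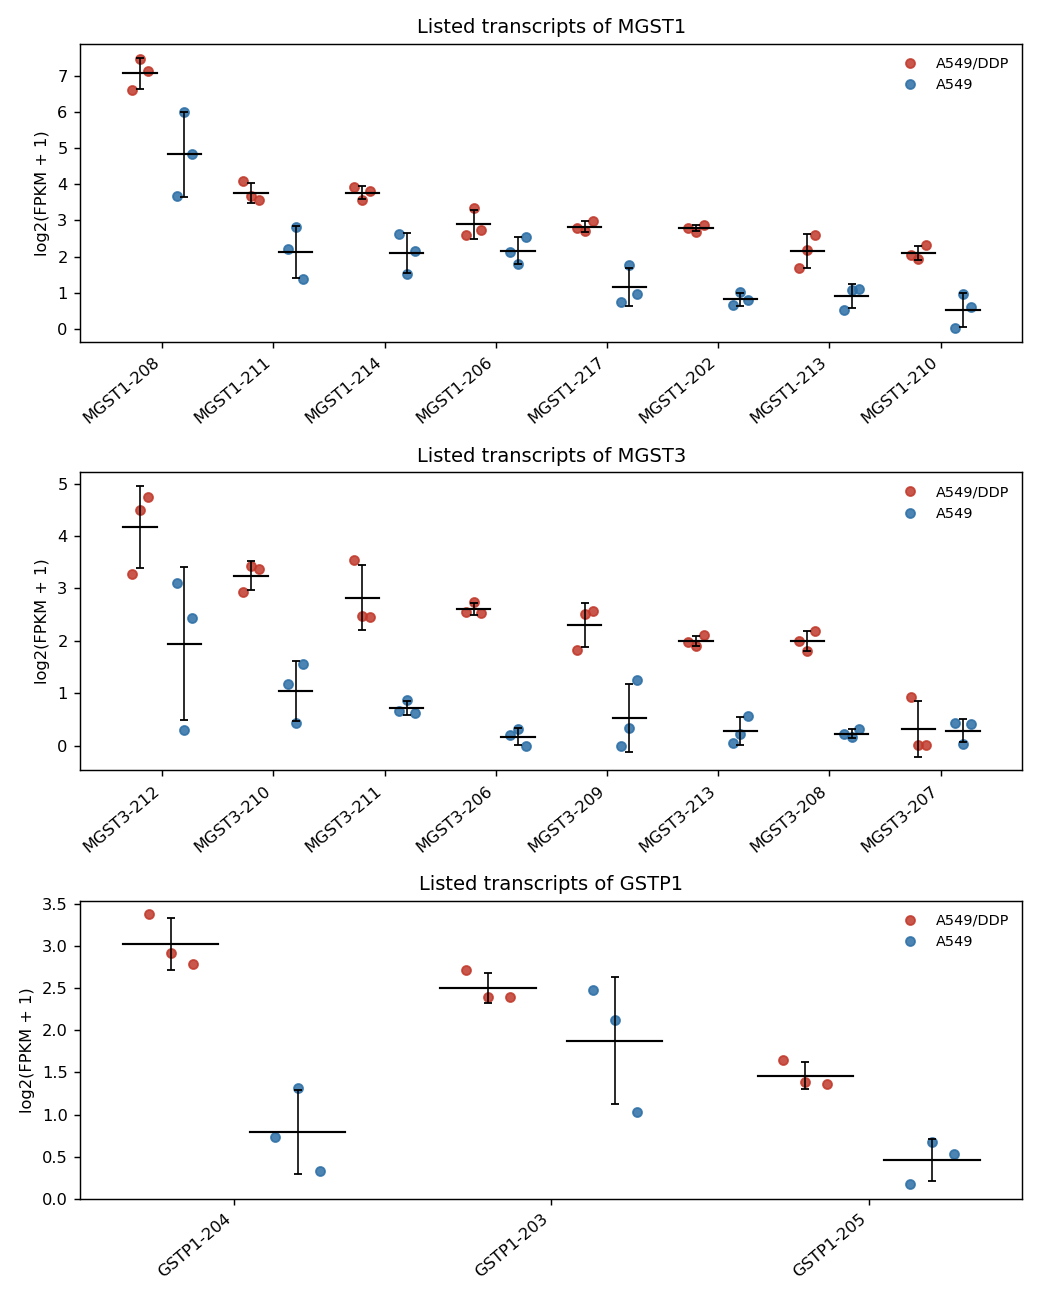
Listed transcripts of MGST1, MGST3 and GSTP1 in each library, as log2(FPKM + 1). Points are libraries (A549/DDP left, A549 right of each pair), lines are means and bars are SD, n = 3 each. The called transcripts MGST1-202, MGST3-206 and MGST3-208 are low in both lines compared with MGST1-208 but have tight groups far apart, whereas GSTP1-203 overlaps between the lines.

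The GSTP1 sum was held by 3 retained-intron transcripts. GSTP1-204, with 292 bases in intron 4, had 9.39, 6.54 and 5.92 FPKM in A549/DDP libraries, against 0.663, 1.49 and 0.253 FPKM in A549 libraries. The groups were wide apart (log2 fold change 2.23, SE 0.33, adjusted p 0.0168 by limma). GSTP1-203, which holds 343 bases of the same intron and runs on to the last exon, had 5.55, 4.27 and 4.25 FPKM in A549/DDP libraries, against 4.56, 3.35 and 1.04 FPKM in A549 libraries. Those groups overlapped (log2 fold change 0.63, 95% interval -0.30 to 1.55, adjusted p 0.409 by limma). As a share of the GSTP1 sum, GSTP1-204 was 55.0%, 52.7% and 50.5% in A549/DDP libraries, against 12.4%, 27.4% and 14.6% in A549 libraries. GSTP1-203 was 32.5%, 34.4% and 36.2% in A549/DDP libraries, against 85.1%, 61.6% and 60.0% in A549 libraries. The shares are parts of 1 sum, so the lower share of GSTP1-203 goes with the higher share of GSTP1-204, while the level of GSTP1-203 was not lower. Of the 27 transcripts of the 10 genes whose shares could be compared, 3 had shares wholly above in A549/DDP libraries (GSTP1-204, MGST1-202 and MGST1-210) and 2 wholly below (GSTP1-203 and GSTK1-209). Over 15532 transcripts of genes with at least 2 tested transcripts, 10.4% had shares wholly above and 7.66% wholly below, so these counts are near the background. GSTP1-205, which retains introns 2, 3, 4 and 6 whole, had 2.13, 1.60 and 1.56 FPKM in A549/DDP libraries, against 0.132, 0.594 and 0.441 FPKM in A549 libraries (adjusted p 0.0546 by limma).

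**Figure D4:**
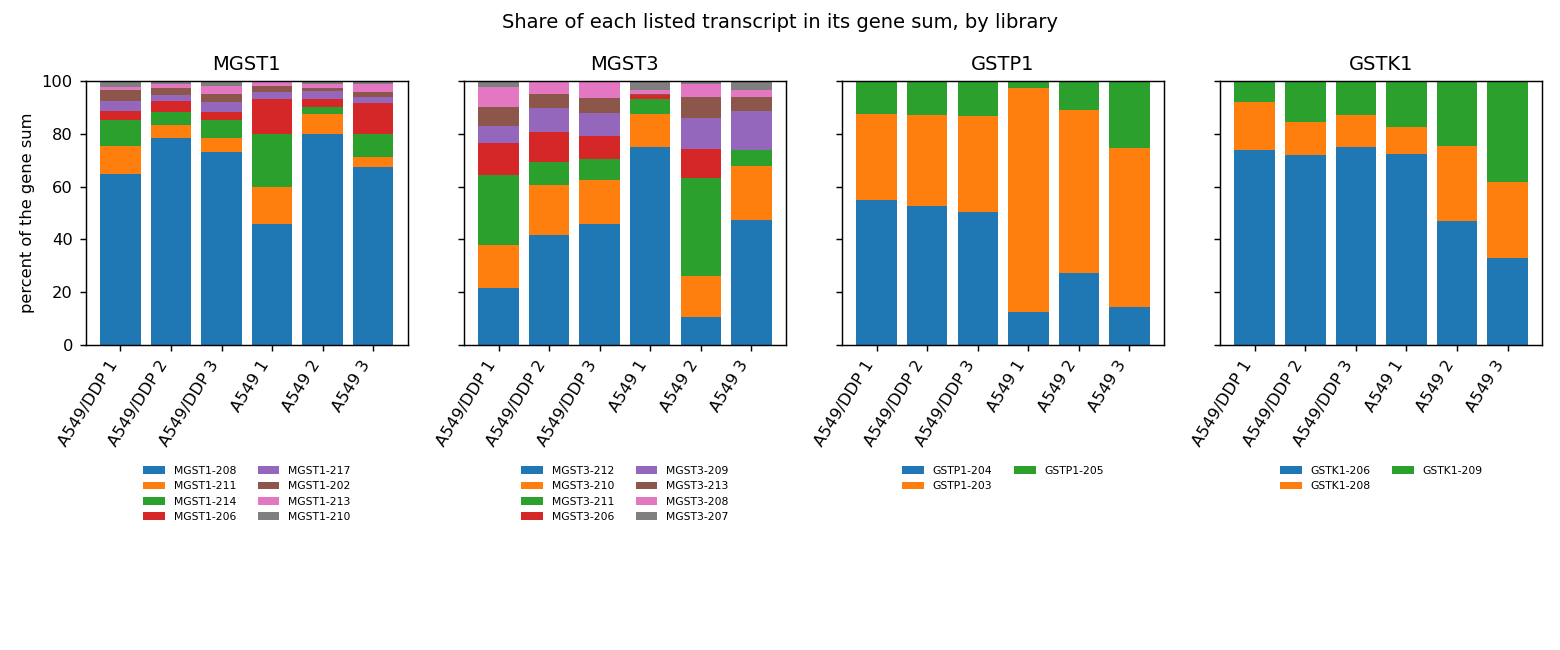
Share of each listed transcript in its gene sum, in percent, for MGST1, MGST3, GSTP1 and GSTK1 (one bar per library, A549/DDP left of A549, colours are transcripts). GSTP1-204 takes 50.5% to 55.0% of the GSTP1 sum in A549/DDP libraries and 12.4% to 27.4% in A549 libraries, while the MGST1 sum is held mainly by MGST1-208 in both lines except for 45.8% in A549 replicate 1.

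The GSTO1 sum rested mainly on 1 transcript, and so did the GSTK1 sum in A549/DDP cells. GSTK1-206 held 74.0%, 71.9% and 74.8% of the GSTK1 sum in A549/DDP libraries, against 72.3%, 47.1% and 33.0% in A549 libraries. GSTK1-206, which retains intron 3 and continues past the reference transcript, had 4.05, 3.72 and 3.35 FPKM in A549/DDP libraries, against 1.96, 1.06 and 0.611 FPKM in A549 libraries (log2 fold change 1.13, adjusted p 0.0754 by limma). The GSTK1 transcripts overlap TMEM139-AS1 on the opposite strand, so their values are uncertain. The other transcripts, GSTK1-208 and GSTK1-209, overlapped between the lines, with log2 fold changes of 0.22 and 0.02. GSTO1-206 held 97.7% to 98.0% of the GSTO1 sum in A549/DDP libraries, against 97.0% and 93.9% in A549 replicates 1 and 2. It had 2.93, 4.76 and 2.74 FPKM in A549/DDP libraries, against 2.37 and 1.49 FPKM in those A549 libraries, and it was listed at 0 in A549 replicate 3 (adjusted p 0.215 by limma).

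The transcripts of GSTZ1, GSTA4, GSTM4 and GGT1 gave no call. GSTZ1-213, a transcript of 5356 bases that retains introns 2 and 4, had 2.38, 2.30 and 1.55 FPKM in A549/DDP libraries, against 3.13, 2.40 and 2.12 FPKM in A549 libraries. Unlike the GSTZ1 sum, it overlapped between the lines (log2 fold change -0.21, adjusted p 0.678 by limma). GSTA4-205 had 1.17 and 1.82 FPKM in A549/DDP replicates 1 and 2 and was listed at 0 in replicate 3, against 0.775 and 0.695 FPKM in A549 replicates 1 and 3 and a listing at 0 in replicate 2. GSTM4-209 had 0.2001, 0.357 and 0.789 FPKM in A549/DDP libraries, against 0.00723, 0.470 and 0.303 FPKM in A549 libraries, and was too low to be tested. GGT1-223, with all 1249 bases in coding exons, had 1.26, 6.26 and 5.59 FPKM in A549/DDP libraries, against 0.435, 2.27 and 5.54 FPKM in A549 libraries (adjusted p 0.627 by limma). GGT1-224 did not overlap between the lines, at 0.240, 0.285 and 0.204 FPKM in A549/DDP libraries, against 0.0269, 0.00648 and 0.0169 FPKM in A549 libraries, but it was below the filter. The 23 transcripts that were neither called nor averaged 1 FPKM nor led their gene sum reached at most 1.68 FPKM in any library. Of these, MGST3-207, GSTK1-208, GSTK1-209 and GGT1-224 were picked out after their values were seen.

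The position of the transcripts in their genes was recorded as a description. Of the 48 transcripts, 2 had no base in coding exons, MGST1-202 and MGST3-208, and both were called. MGST3-208 entered the test only through its A549/DDP values, so no relation between position and change was read from this. Another 9 had all bases there, of which only GGT1-223 was high enough to be tested, and it was not called. A whole intron of the reference transcript is spanned by 9 transcripts, of which 7 were tested and none was called, where 0.552% of all transcripts tested were called.

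**Figure D5:**
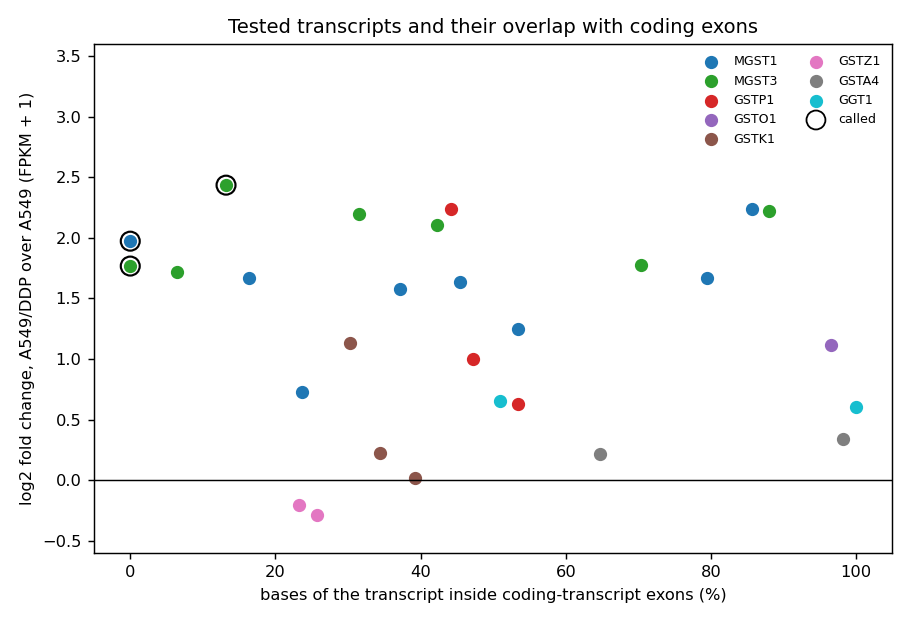
Log2 fold change of each tested transcript (A549/DDP over A549, FPKM + 1) against the percentage of its bases inside exons of coding transcripts of its gene. Colours are genes and open rings mark called transcripts. MGST1-202 and MGST3-208 lie at 0%, MGST3-206 at 13.2%, and the transcript at 100% is GGT1-223 with a log2 fold change of 0.61.

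Promoter sequence was searched for the core of the antioxidant response element, TGACNNNGC on either strand, because many genes of this family are known NRF2 targets. RefSeq windows (GRCh38.p14) from 250 bases before to 50 bases after the start were at hand for 9 of the 10 genes, in 12 windows, and MGST2 had none. The core was found in windows of 5 of the 9 genes (5 of 12 windows), and 13.3% of 35116 windows of that length held it. The matches are shown with the element in capitals and flanks in lower case, 5′ to 3′ in the direction of the gene, and for GGT1 the element lies on the opposite strand.
GSTP1 (chr11:67583736-67583764): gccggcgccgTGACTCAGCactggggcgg
MGST1 (chr12:16347135-16347163): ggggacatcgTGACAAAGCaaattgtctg
GSTO1 (chr10:104254656-104254684): ggcggagggaTGACTGAGCatttataact
GSTO1 (chr10:104254721-104254749): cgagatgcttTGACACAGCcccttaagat
GSTA4 (chr6:52995275-52995303, minus strand): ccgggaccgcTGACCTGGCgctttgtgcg
GGT1 (chr22:24603154-24603182): ggaaggaggaGCTGGGTCAcagcagggaa
The GSTP1 match begins 66 bases before the start and overlaps the only AP-1 site (TGAGTCA or TGACTCA) found in the members' windows, a site held by 4.95% of all windows. The MGST1 match lies in 1 of its 3 windows. MGST3, the gene whose sum was called, had only the looser core TGANNNNGC, which 41.8% of all windows and 8 of the 9 genes held.
MGST3 (chr1:165631100-165631128): ccagtggcccTGAGTTGGCaacttagaca
These matches describe letters in the windows, and binding was not measured.

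The miRNA miR-432-5p was examined because the study set it beside MGST3. Its mature sequence in RefSeq is shown with the seed (bases 2 to 8) in capitals.
miR-432-5p: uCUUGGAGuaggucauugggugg
It lies on chromosome 14, 100884496 to 100884518, plus strand (GRCh38.p14). The complement of the seed, CTCCAAG, occurred in 0 of the 8 listed MGST3 transcripts and in 6 of the 48 transcripts of the 10 genes, against 11.5% of 70922 listed annotated transcripts. The 6 are GSTP1-204, GSTP1-205, GSTK1-206, GSTZ1-213, GGT1-223 and GGT1-224. Coding transcripts and miRNA levels were not analysed here. The paper predicted such sites in the untranslated region after the coding sequence of mRNAs. MGST3-211, the listed MGST3 transcript that reaches furthest, ends at 165655620, before the end of the reference transcript MGST3-205 at 165656136. The listed MGST3 transcripts therefore lack at least the last part of the reference transcript. The position of the site that the paper tested was not determined here, and the paper predicted sites with the program miRanda, not by this seed match. The count for MGST3 therefore cannot decide whether that site is present.

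The profile of the called gene sum was compared with all others by the Euclidean distance of centred log2(FPKM + 1) values over the 6 libraries. Nearest to MGST3 were LMNB1 (nuclear lamin B1) at 0.905, SPP1 (osteopontin) at 1.07, HGD (homogentisate dioxygenase) at 1.15, KRT8 (keratin 8) at 1.22 and LPCAT1 (a phospholipid acyltransferase) at 1.27. LMNB1 had 10.1, 30.6 and 20.4 FPKM in A549/DDP libraries, against 2.90, 0.460 and 2.33 FPKM in A549 libraries. All 5 had their lowest value in A549 replicate 2, as MGST3 did, which follows from their choice by likeness over these libraries.

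Other genes of the family and the pathway were counted by gene sum for comparison. Of all 81818 listed transcripts, only 347 have a span that belongs to a coding transcript alone. These sums therefore need not measure coding mRNAs, and a gene not listed or listed at 0 is not shown to be silent. Of 19 other genes of the transferase superfamilies, 13 were listed and 5 tested, with 0 called by limma, 1 at an unadjusted p under 0.05 (27.1% of all gene sums tested) and a median log2 fold change of -0.66. PTGES, the prostaglandin E synthase of the same membrane family as the microsomal enzymes, had 2.40, 0.646 and 2.14 FPKM in A549/DDP libraries, against 6.21, 6.91 and 20.8 FPKM in A549 libraries (log2 fold change -2.05, adjusted p 0.0336 by limma). Its A549/DDP libraries were thus all lower, the opposite of MGST1 and MGST3. The next by mean level, GSTCD and CLIC4, overlapped between the lines, with adjusted p of 0.443 and 0.449 by limma.

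Of 34 genes of glutathione synthesis, turnover and use, 26 were listed and 19 tested. Of these, 1 was called as higher and 0 as lower, against 1.39% and 0.963% of all gene sums tested. The median log2 fold change was 0.30, against 0.17 over all. Every A549/DDP library was higher for 5 of the 19 and lower for 2, against 21.8% and 10.4% of all, so these counts are near the background. The called gene was PGD, a dehydrogenase of the pentose phosphate pathway that supplies NADPH, with 12.3, 13.8 and 13.6 FPKM in A549/DDP libraries, against 3.24, 3.34 and 4.89 FPKM in A549 libraries (adjusted p 0.00713 by limma). Among the genes with the highest means, SLC3A2, the heavy chain of the cystine transporter, had 140, 10.6 and 11.8 FPKM in A549/DDP libraries, against 212, 226 and 187 FPKM in A549 libraries, so that A549/DDP replicate 1 stood apart from the other two (adjusted p 0.0632 by limma). IDH1, another source of NADPH, overlapped between the lines (adjusted p 0.309 by limma). GCLM, the modifier subunit of the enzyme that limits glutathione synthesis, was picked out after its values were seen. It had 7.94, 6.04 and 10.5 FPKM in A549/DDP libraries, against 0.330, 2.18 and 0.928 FPKM in A549 libraries, and missed the threshold narrowly (log2 fold change 2.16, adjusted p 0.0103 by limma).

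Of 9 genes for export of conjugates, 7 were listed and 6 tested. None was called by limma, 3 had an unadjusted p under 0.05, against 27.1% of all gene sums tested, and the median log2 fold change was 0.42. ABCC3 had 39.2, 26.2 and 33.9 FPKM in A549/DDP libraries, against 61.7, 67.3 and 42.7 FPKM in A549 libraries (adjusted p 0.108 by limma). ABCC1, the pump best known for glutathione conjugates, had 7.60, 5.76 and 7.82 FPKM in A549/DDP libraries, against 3.20, 5.47 and 5.35 FPKM in A549 libraries (adjusted p 0.247 by limma). Neither gene overlapped between the lines, with A549/DDP libraries lower for ABCC3 and higher for ABCC1. ABCC2 and ABCC4, picked out after their values were seen, did not overlap either. ABCC2 had 4.68, 5.45 and 5.47 FPKM in A549/DDP libraries, against 0.880, 2.23 and 0.706 FPKM in A549 libraries (log2 fold change 1.5, adjusted p 0.0193 by limma). ABCC4 had 5.71, 3.52 and 6.29 FPKM in A549/DDP libraries, against 2.87, 2.74 and 0.794 FPKM in A549 libraries (log2 fold change 1.03, adjusted p 0.109 by limma). Of the 6 genes tested, 3 thus had every A549/DDP library higher and 1 every one lower, against 21.8% and 10.4% of all gene sums tested.

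The libraries summed to 65142 to 68664.5 FPKM in A549/DDP cells and 58042.4 to 62589.1 FPKM in A549 cells, and the number of reads behind a value is unknown. Of the epithelial markers KRT8, KRT18, KRT19, EPCAM and CDH1, all 5 were listed and 4 tested, with a summed level of 1798 to 2391 FPKM in A549/DDP libraries and 477 to 678 FPKM in A549 libraries, most of it KRT8. KRT8 was called as higher (1731, 2043 and 1491 FPKM in A549/DDP libraries, against 535, 268 and 455 FPKM in A549 libraries, adjusted p 0.00423 by limma). KRT18 and CDH1 had every A549/DDP library higher without a call (adjusted p 0.123 and 0.0264 by limma), EPCAM overlapped with a log2 fold change of -0.28, and KRT19 averaged 0.197 FPKM in A549/DDP cells and 0.397 FPKM in A549 cells and was not tested. Of the mesenchymal markers VIM and CDH2, only VIM was listed, and it overlapped between the lines (adjusted p 0.639 by limma). The alveolar type 2 list summed to 0.198 to 1.56 FPKM in A549/DDP libraries and 0.163 to 3.74 FPKM in A549 libraries, with SFTPA1, SFTPB and SFTPC listed at 0. The leukocyte, fibroblast and endothelial lists stayed at or under 0.780 FPKM in every library, with PTPRC, PDGFRA and PECAM1 at 0. The liver list, with ALB at 0, reached 0.798 to 1.51 FPKM in A549/DDP libraries and 0 to 0.270 FPKM in A549 libraries. The part of these shifts in the values of the glutathione genes was not tested. Marker sums need not measure coding mRNAs either, so a listing at 0 does not show that a gene was silent.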

How the data were processed

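The authors deposited 1 table of FPKM values per transcript for each of the 6 libraries. Per the paper's methods, reads were trimmed with Trimmomatic, aligned to hg38 with HISAT2, and assembled and quantified with Cufflinks tools. The submitters' processing notes name CASAVA, HISAT2, StringTie and DESeq2 without versions, and which tool made the FPKM values is not stated. The kit kept the strand, and no source says whether quantification used it. Ratios of low values between libraries had only weak peaks (0.471% to 0.75% of pairs), so whole reads were not recovered, no count test was run and depth is unknown.

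Groups came from the labels. Transcripts were named by gene ID and span in GENCODE 44 (87.1% of all matched). Values were compared as log2(FPKM + 1) with limma 3.58.1 (R 4.3.3) with a variance trend, for features that reached 0.5 FPKM in 3 or more libraries, two-sided. The pseudocount understates changes of low features. An exact permutation test of 3 against 3 libraries cannot go below 0.1. The code was tested on simulated data. Sums, positions, motifs and figures used matplotlib 3.10.9, scipy 1.17.1, numpy 2.4.6 and pandas 2.3.3 under Python 3.11.15. The members, gene lists and tests were chosen with earlier results of these data known. All 10 genes were described by their sums, as were transcripts that were called, averaged 1 FPKM or more, or held the largest share of their sum. Of each other list the 3 genes with the highest mean were named where fewer than 3 were called, except some that are not reported here. Alternatives were pseudocounts of 0.1 and 0.01, no filter, a filter at 2 FPKM, quantile and median-ratio scaling, array weights, a replicate block, sums without coding spans, leaving out each library and, for the motif, a looser core.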

Additional observations from a re-analysis of the deposited data

How the results depend on the processing

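Depth is unknown, so values under about 1 FPKM carry no error beyond the spread of 3 libraries. Over 467 comparisons of single genes and transcripts under alternatives, 420 kept their direction and their side of the threshold, 45 lost a call, 2 gained one and 0 reversed. Most of those 420 were features that had no call to lose and stayed uncalled. The features called in the main fit lost their calls in most alternatives. The MGST3 sum kept its call in 3 of 15 alternatives, MGST1-202 in 3 of 14, MGST3-206 in 4 of 14 and MGST3-208 in 2 of 14. MGST3-213 gained a call with the filter at 2 FPKM (adjusted p 0.00737 by limma).

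The number of called member transcripts was 3, but 0 with a pseudocount of 0.1 or 0.01 or with no filter, and 1 with median-ratio scaling. The number of called member sums was 1, but 0 with either pseudocount, no filter, quantile normalization, median-ratio scaling, or sums without transcripts of coding span, a setting that removes no transcript of these genes and left MGST3 at an adjusted p of 0.01 by limma. Called transcripts numbered 73 higher and 41 lower, against 4 and 2 with a pseudocount of 0.01, 3 and 1 with no filter, and 62 lower with the filter at 2 FPKM. Called gene sums numbered 147 higher and 102 lower, against 49 and 41 with a pseudocount of 0.01, 31 and 28 with no filter, and 94 higher with median-ratio scaling. Leaving out each library in turn gave 0 to 2 transcripts higher and 1 to 5 lower, 0 member transcripts in each case, 34 to 68 gene sums higher and 23 to 60 lower, and 0 to 2 member sums, the 2 being MGST3 and MGST1 without A549 replicate 2. Fewer libraries were then tested. For the other settings the cause was not tested. With the looser core TGANNNNGC, 8 members in place of 5 held the promoter motif.

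Library numbers gave no sign of pairing. The deviations of same-numbered libraries correlated at 0.0041, -0.046 and -0.023, and not every library correlated best with its own number. Deviations from the means of so few libraries cannot exclude a shared culture or batch. With the replicate block, 0 transcripts were called as higher and 1 as lower, 36 gene sums as higher and 35 as lower, and 0 member transcripts and 0 member sums were called.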
